A study of Mus musculus with 30 samples.

Results

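Histone lysine methyltransferases and demethylases were followed across lists of genotype-specific chromatin regions from mouse microglia. The members were the protein-coding genes whose symbols begin with Kdm or Kmt and a number, Setd and a number or a capital A or B, Suv39h, or Prdm and a number, together with the Nsd genes that end in 1 digit. The rule gave 52 of 21887 protein-coding genes, 14 of them Prdm genes. Because it reads capitals, Setdb1 and Setdb2 fall outside it and stand among 33 related genes described near the end. A region was counted for a gene when it overlapped the gene span extended by 2 kb on both sides. In this way 78 of 22399 listed regions fell at members, and no region was counted for more than 1 member. Distances to a start or an end of a gene are those of the region's midpoint.

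The study profiled sorted primary microglia, the resident macrophages of the brain, by CUT&Tag, a method that tethers a transposase to an antibody and so marks the DNA around the bound protein. The cKO group carried Mir137loxP/loxP;Tmem119-CreERT2 and the cWT group Mir137+/+;Tmem119-CreERT2, so both carried the tamoxifen-inducible Cre expressed from Tmem119, a gene used as a marker of microglia. All mice were C57BL/6J, labelled as 8 weeks of age, and both genotypes were given tamoxifen for 7 days in a row. Per antibody and genotype there were 3 replicates, 30 samples in 10 groups. The 5 antibodies were against H3K27ac (active enhancers and promoters), H3K4me3 (active promoters), RNA polymerase II (Pol II), Pol II with phosphate on serine 5 (Ser5P, the form found near gene starts) and Pu.1 (a myeloid transcription factor). Whether each replicate was a separate mouse is not labelled. The protocol lists H3K27ac, Pol II and Ser5P under 1 antibody catalogue number, and H3K4me3 and Pu.1 under another.

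The data were 10 lists of regions, 1 per antibody and genotype, with no value per replicate, so no difference below could be compared with replicate spread and none was tested. Read depth is unknown. A region in a cKO or cWT list is one that the authors called specific to that genotype, and a gene without a region may still carry the mark in both. No listed region lay within 10 kb of Mir137, so the lists give no check of the floxed gene. Of 10 microglial marker genes, 9 had a listed region (Aif1 had none). None of 5 neuronal, 4 astrocytic and 3 T cell markers had one, against 2 of 3 endothelial, 1 of 4 oligodendrocyte and 1 of 4 border macrophage markers. These counts show where listed regions lay and do not measure cell types.

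Lysine methylation is written by enzymes with a SET domain and removed by the amine oxidases and Jumonji-domain oxygenases of the Kdm families. The position of the lysine sets what the mark is known for: methylation of H3K4 marks promoters and enhancers, H3K36 transcribed gene bodies, H3K9 and H4K20 compacted chromatin, and H3K27 genes silenced by Polycomb. Most of these enzymes are made in nearly every cell type, whereas many Prdm genes encode transcription factors of particular lineages. In macrophages the H3K27 demethylase encoded by Kdm6b is known as a gene induced by inflammatory signals.

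The floxed gene encodes the microRNA miR-137, which acts on transcripts through its seed. Its 2 mature forms are shown from RefSeq (GRCm38.p6, + strand, chr3:118433865-118433887 for 5p and chr3:118433901-118433923 for 3p), with the seed (bases 2 to 8) in capitals, because the genotypes differ in this gene.
mmu-miR-137-5p: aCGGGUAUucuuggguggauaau
mmu-miR-137-3p: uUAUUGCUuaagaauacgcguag

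Of the 52 members, 35 had at least 1 listed region, 67.3% against 40.2% of all protein-coding genes. The 17 without any included Kmt2c, Setd2, Nsd2, Suv39h1, Setd6, Kdm2a, Kdm4c, Kdm5a, Kdm5d and Prdm genes such as Prdm12 and Prdm16. Regions in 3 or more lists were found at 11 members (21.2%), against 8.78%. Among the 14 Prdm genes 6 had a region, and among the other 38 members 29 had one. Members are long genes, with a median span of 55.7 kb against 17.2 kb for all protein-coding genes. Members with a region had a median span of 45.9 kb, and those without one 80.5 kb. The part of length in the share with a region was not tested.

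In 4 of the 5 antibodies, nearly all member regions lay in 1 genotype's list, the one that also holds most regions of that antibody overall. For H3K27ac, 1 of 26 member regions was in the cKO list and 25 in the cWT list, a cKO share of 3.85% (95% exact Clopper-Pearson interval 0.0973 to 19.6%, counting error only), beside 10.8% of all H3K27ac regions. For Pol II all 12 member regions were in the cKO list (interval 73.5 to 100%), beside 92.2% of all Pol II regions. For Ser5P 25 were in the cKO list and 1 in the cWT list, 96.2% (interval 80.4 to 99.9%), beside 98.0%. All 4 Pu.1 regions were in the cKO list (interval 39.8 to 100%), beside 95.9%. H3K4me3 had 8 regions in the cKO list and 2 in the cWT list, 80.0% (interval 44.4 to 97.5%), beside 61.5%. Each interval includes the share of the whole antibody. The intervals treat regions as independent, although some lie at the same gene, and on 4 to 26 regions they are wide. They are no test of a difference.

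Counted by gene, 18 members (34.6%) had a region of the cWT list of H3K27ac, against 18.3% of all protein-coding genes. Nsd1 alone (1.92%) had a region in the cKO list of H3K27ac, against 2.99%. Ser5P regions of the cKO list were found at 23 members (44.2%), against 21.1%, and Pol II regions of the cKO list at 12 members (23.1%), against 16.4%. For H3K4me3, 8 members (15.4%) had a region in the cKO list, against 6.16%, and 2 (3.85%) in the cWT list, against 3.89%. Pu.1 regions of the cKO list lay at 3 members (5.77%), against 3.24%. Of the rarest lists, cWT Ser5P held 1 member, against 0.521% of all genes, and cWT Pol II and cWT Pu.1 held none, against 1.45% and 0.0959%.

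Per length of gene the order of members and all genes depended on the list. Members held 0.673 regions of cWT H3K27ac per 100 kb of extended span, against 0.516 summed over all protein-coding genes, and 0.673 against 0.519 for cKO Ser5P. For cKO Pol II the order turned round, with 0.323 per 100 kb in members against 0.385. Regions of the cKO H3K4me3 list stood at 0.215 against 0.123, on 8 regions. The cWT H3K4me3 list gave 0.0538 against 0.0773 on 2 regions, and the cKO H3K27ac list 0.0269 against 0.0626 on 1 region.

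**Figure D1:**
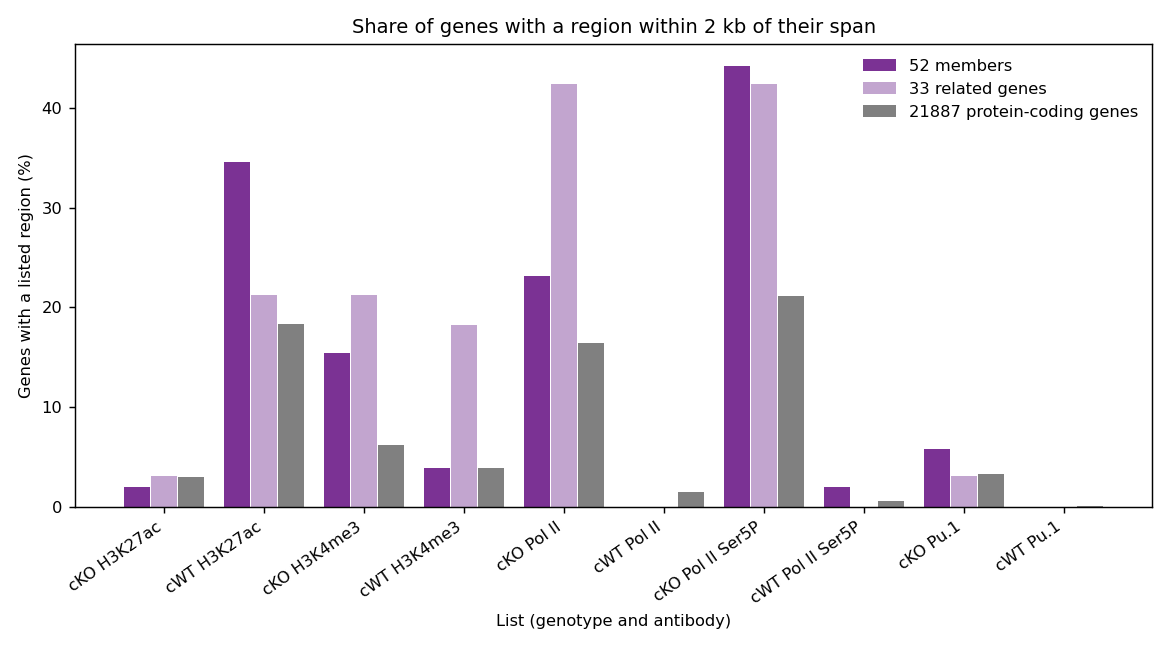
Share of genes (y axis, %) with a listed region within 2 kb of their span, for each of the 10 lists (x axis), in the 52 members, the 33 related genes and all 21887 protein-coding genes. Members stand above all genes in the cWT H3K27ac list (34.6% against 18.3%) and the cKO Ser5P list (44.2% against 21.1%), without correction for gene length.

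**Figure D2:**
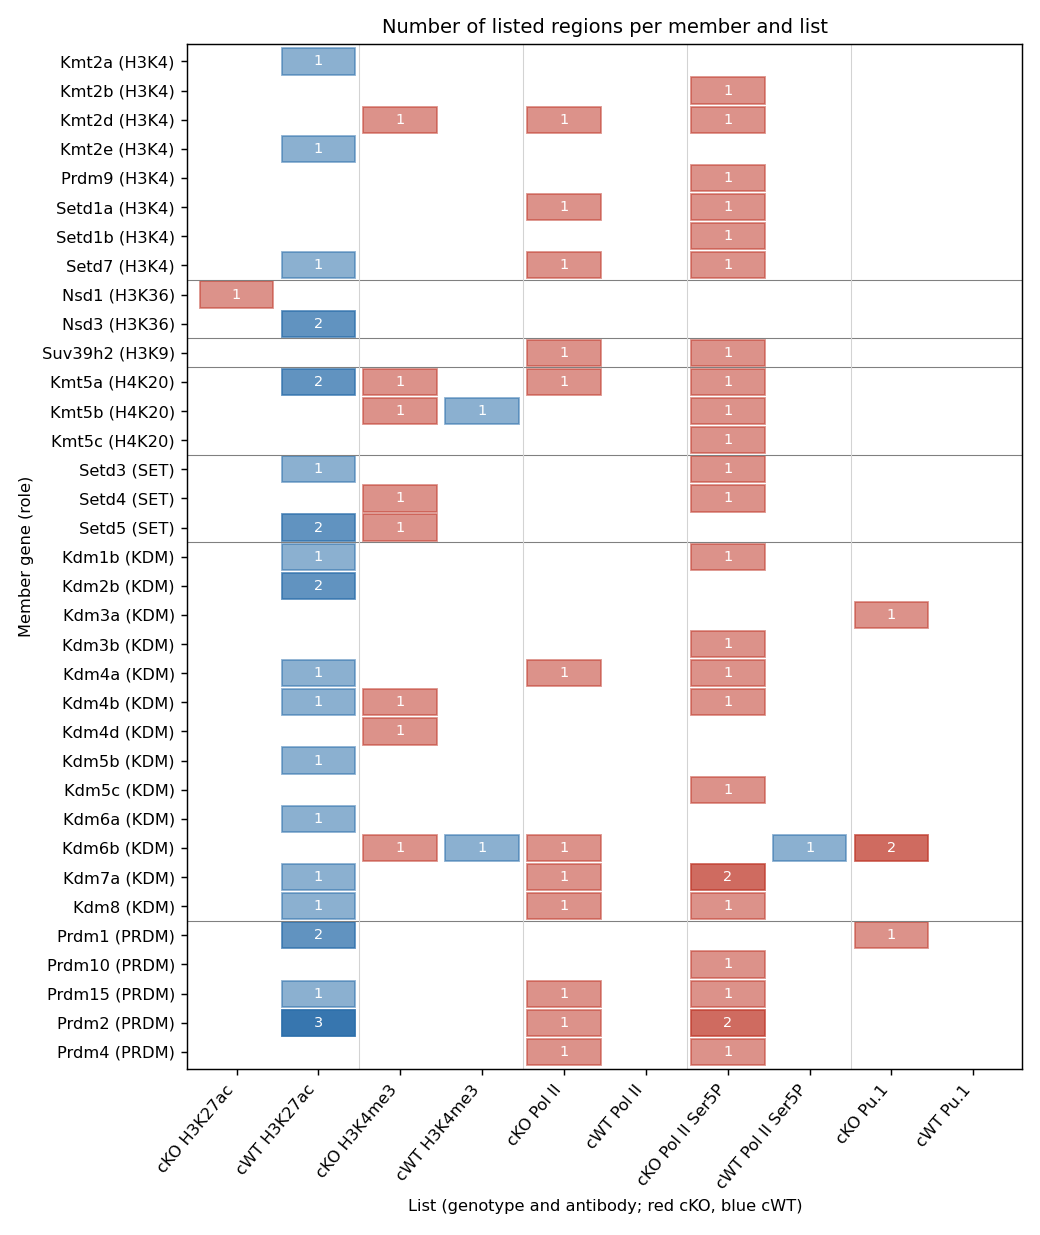
Number of listed regions (in each cell) for the 35 members that had any, by role (y axis), and for each list (x axis), with cKO lists in red and cWT lists in blue. H3K27ac cells are blue except at Nsd1, and Pol II and Ser5P cells are red except at Kdm6b.

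Among the 9 genes for H3K4 methyltransferases, which place the mark of promoters and enhancers, 8 had a region and Kmt2c had none. Ser5P of the cKO list was the most frequent, at 6 of the 9, followed by Pol II of the cKO list and H3K27ac of the cWT list at 3 each. Among all protein-coding genes 40.2% had any region, and these 3 lists were found at 21.1%, 16.4% and 18.3%. Kmt2d encodes a methyltransferase of enhancers. It had a cKO Pol II region at chromosome 15, 98871952 to 98872270, with its midpoint 906 bases upstream of a start inside the gene span. The region itself also lay inside the span. At the opposite end of the gene lay a cKO H3K4me3 region (98830879 to 98831574) and a cKO Ser5P region (98831515 to 98831865) that shared 60 bases. That end adjoins the gene Prkag1, and the H3K4me3 region overlaps Prkag1, so these regions may belong to either gene.

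Setd7, which encodes an enzyme that adds a single methyl group to H3K4 and to proteins other than histones, had polymerase regions at its start. The cKO Pol II region (chromosome 3, 51559791 to 51560461) and the cKO Ser5P region (51559830 to 51560842) shared 632 bases, with midpoints 697 and 487 bases inside the gene. Its H3K27ac region, in the cWT list at 51518139 to 51518709, lay 42399 bases from the start. Setd1a, a catalytic subunit of the main H3K4 trimethylation complexes, had cKO Pol II and cKO Ser5P regions that shared only 17 bases, 479 bases upstream and 43 bases inside the start. Both also lay within 2 kb of the gene Orai3. The remaining members with regions in this group had 1 each: cWT H3K27ac at Kmt2a and at Kmt2e, which is grouped here by family, and cKO Ser5P at Kmt2b, Setd1b and Prdm9. Prdm9, known for H3K4 methylation at recombination sites in germ cells, had its Ser5P region (chromosome 17, 15564118 to 15564606) centred 8 bases from a start.

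Of the 4 genes for H3K36 methyltransferases, 2 had regions, 3 in all, and each was an H3K27ac region. Nsd1 had the only cKO H3K27ac region of any member, at chromosome 13, 55211944 to 55212261, inside the gene and 2320 bases from the nearer end. Nsd3 had 2 cWT H3K27ac regions, 10342 and 711 bases from an end. The second of them overlaps the gene Plpp5. No polymerase, H3K4me3 or Pu.1 region lay at any of the 4, which include Setd2, the enzyme known for H3K36 trimethylation behind elongating polymerase. A cKO Pol II or cKO Ser5P region was found at 26.8% of all protein-coding genes, so its absence at 4 genes says little. The H3K9 methyltransferases comprised Suv39h1 without a region and Suv39h2 with a cKO Pol II region (chromosome 2, 3475037 to 3475386) inside a cKO Ser5P region (3474793 to 3475392). Both lay at the start of Suv39h2 and within 2 kb of the neighbour Dclre1c.

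All 3 genes for H4K20 methyltransferases had regions. Kmt5a, which encodes the enzyme that adds the first methyl group to H4K20, had 5 regions in 4 lists. At its start the regions of 4 antibodies lay on top of each other within 502 bases: a cKO Pol II region (chromosome 5, 124439832 to 124440117), a cKO Ser5P region (124439968 to 124440206) and a cKO H3K4me3 region (124439996 to 124440277), all inside a cWT H3K27ac region (124439825 to 124440326). A second cWT H3K27ac region was centred 1237 bases upstream. The same stretch of DNA was therefore listed as specific to cKO for the polymerase and H3K4me3 and as specific to cWT for H3K27ac. All 4 overlapping regions are named secondary in the deposited lists, a label whose meaning is not stated. The RefSeq promoter (GRCm38.p6, chr5:124439680-124439979, + strand, 250 bases before to 50 after the start) is shown because 3 of these regions reach into it. Capitals mark the GC box GGGCGG on either strand, which it holds 3 times.
Kmt5a: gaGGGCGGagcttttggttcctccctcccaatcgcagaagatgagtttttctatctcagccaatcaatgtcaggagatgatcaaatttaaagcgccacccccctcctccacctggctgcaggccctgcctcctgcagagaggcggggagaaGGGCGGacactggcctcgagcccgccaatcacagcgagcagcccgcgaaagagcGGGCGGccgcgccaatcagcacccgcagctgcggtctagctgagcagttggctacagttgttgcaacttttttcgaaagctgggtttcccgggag

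Kmt5b, which encodes an enzyme for the next methylation steps of H4K20, was 1 of 2 members (3.85%) with H3K4me3 regions in both lists, against 0.599% of all protein-coding genes. The cKO region (chromosome 19, 3768333 to 3768711) and the cWT region (3768747 to 3769192) were neighbours, 35 bases apart, and a cKO Ser5P region (3768514 to 3769123) overlapped both. Over the whole series, 58 of 1331 cKO H3K4me3 regions (4.36%) lay within 100 bases of a cWT H3K4me3 region, and 44 overlapped one. Kmt5c, which encodes the second enzyme of this kind, had 1 cKO Ser5P region centred 203 bases upstream of its start.

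Of 17 demethylase genes, 13 had a region. H3K27ac of the cWT list was found at 8 of them, cKO Ser5P at 7, cKO Pol II at 4, cKO H3K4me3 at 3 and cKO Pu.1 at 2. Among all protein-coding genes the shares were 18.3%, 21.1%, 16.4%, 6.16% and 3.24%, in the same order, and 40.2% had any region. Kdm6b, which encodes a demethylase of H3K27, had 6 regions in 5 lists. Regions in 5 or more lists were found at 0.667% of all protein-coding genes, and Kdm6b was the only member (1.92%) among them. Kdm6b had no H3K27ac region. Inside the gene, with its midpoint 9531 bases from the nearer end, a cKO Pol II region spanned 695 bases (chromosome 11, 69410489 to 69411183). Within it lay all of a cKO H3K4me3 region (69410547 to 69411101), a cKO Pu.1 region (69410523 to 69410766) and the only Ser5P region of the gene, which was in the cWT list (69410550 to 69410804). A second cKO Pu.1 region lay close by, at 69409653 to 69409920.

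At this place total Pol II was thus listed for cKO and Ser5P for cWT. In the whole series 18 of 127 cWT Ser5P regions (14.2%) overlapped a cKO Pol II region. Of 4647 cKO Pol II regions, 81 (1.74%) were overlapped by regions of 3 or more other lists, as this one was. By deposited p-value it ranked 102 of 4647 in its list, whereas the cKO H3K4me3 region inside it ranked 1207 of 1331 in its own. The H3K4me3 region of the cWT list at Kdm6b lay elsewhere, at 69395805 to 69396580, 14.0 kb from the cKO one. It overlaps the genes Naa38 and Tmem88 beyond the end of Kdm6b, so it may belong to them. Without it Kdm6b had regions in 4 lists, and no member had regions in 5.

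**Figure D3:**
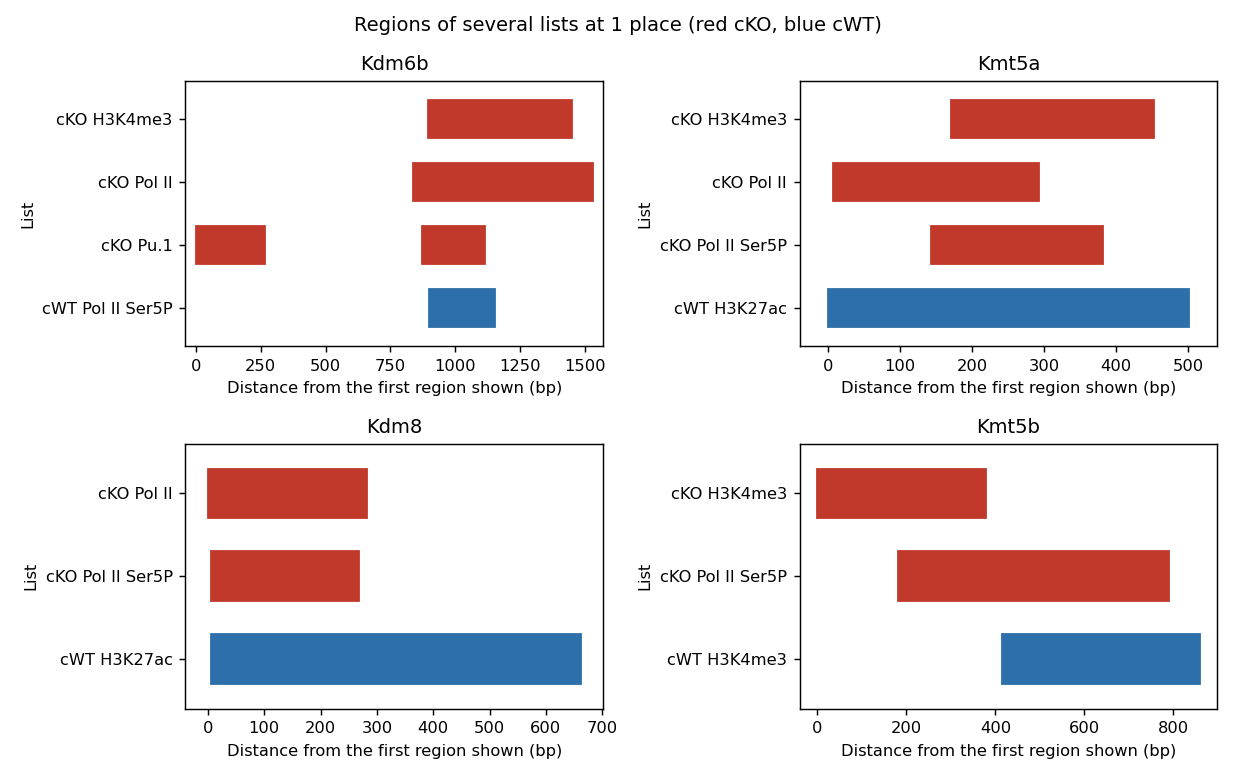
Regions drawn to scale at Kdm6b (the 5 regions inside the gene), Kmt5a (the 4 regions at the start), Kdm8 and Kmt5b (all their regions). The x axis is the distance in bp from the first base of the first region shown and the y axis the list, with cKO in red and cWT in blue. At Kdm6b the cWT Ser5P bar lies inside the cKO Pol II bar, and at Kmt5b the 2 H3K4me3 bars stand side by side, 35 bases apart.

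Kdm8 encodes an oxygenase of the Jumonji family. Its regions lay at the gene start, where cKO Pol II (chromosome 7, 125444640 to 125444922) and cKO Ser5P (125444645 to 125444908) regions coincided over 264 bases. A cWT H3K27ac region (125444646 to 125445302) overlapped both. The RefSeq promoter (GRCm38.p6, chr7:125444370-125444669, + strand) is shown for comparison with that of Kmt5a, since the same 3 lists met at that gene's start. The 3 regions at Kdm8 begin at 125444640 or later, so they reach only into the last bases of the promoter shown. This promoter holds 1 GC box, in capitals, which begins 6 bases before the start and lies outside the 3 regions.
Kdm8: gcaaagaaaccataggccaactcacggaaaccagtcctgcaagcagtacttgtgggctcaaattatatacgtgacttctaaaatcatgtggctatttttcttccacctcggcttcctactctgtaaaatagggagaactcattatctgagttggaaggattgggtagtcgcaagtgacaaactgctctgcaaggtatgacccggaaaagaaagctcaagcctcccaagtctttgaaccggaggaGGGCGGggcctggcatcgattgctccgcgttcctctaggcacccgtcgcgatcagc

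Kdm7a, which encodes a demethylase of H3K9 and H3K27, had 4 regions near its start. A cKO Pol II region and a cKO Ser5P region shared 285 bases, with midpoints 1373 and 1232 bases inside the gene. A further cKO Ser5P region (chromosome 6, 39206888 to 39207269), centred 305 bases upstream, shared 287 bases with a cWT H3K27ac region (39206983 to 39207386). Kdm4a, which encodes a demethylase of H3K9 and H3K36, had its regions deep inside the gene. Its cKO Pol II region (chromosome 4, 118152012 to 118152532) and cKO Ser5P region (118152257 to 118152573) shared 276 bases, with midpoints 27771 and 27628 bases from the start, and its cWT H3K27ac region (118144157 to 118144923) lay 35503 bases from it. Kdm4b, of the same family, had overlapping cKO H3K4me3 and cKO Ser5P regions at an end of the gene (chromosome 17, 56325934 to 56326346 and 56325643 to 56326270) and a cWT H3K27ac region 11705 bases from that end.

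Of the other demethylase genes, Kdm2a, Kdm4c, Kdm5a and Kdm5d had no region, and the rest had 1 or 2 each. At Kdm1b, which encodes an amine oxidase acting on H3K4, a cKO Ser5P region (chromosome 13, 47043234 to 47043773) centred 4 bases from the start shared 343 bases with a cWT H3K27ac region, and it overlaps the neighbour Tpmt. Kdm2b, whose product binds CpG islands, had 2 cWT H3K27ac regions, and Kdm5b and Kdm6a had 1 each. Kdm5c and Kdm3b had 1 cKO Ser5P region each. Kdm4d had a single cKO H3K4me3 region (chromosome 9, 14500590 to 14501153), which overlaps the neighbour Cwc15.

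Kdm3a, which encodes an H3K9 demethylase, had a cKO Pu.1 region and no other. This region (chromosome 6, 71633132 to 71633411) reached into the promoter, with its midpoint 354 bases upstream of a start. Prdm1, which encodes the transcriptional repressor Blimp-1, likewise had a cKO Pu.1 region across a start inside the gene span (chromosome 10, 44458743 to 44458991, midpoint 119 bases upstream). By deposited p-value the Prdm1 region ranked 1013 of 1017 in the cKO Pu.1 list, near its end, and the Kdm3a region ranked 572. The promoters of Kdm3a and Prdm1 were the 2 member promoters that a Pu.1 region overlapped. Neither promoter holds the Pu.1 motif searched, GAGGAAGT. Only exact matches were searched, so sites with a variant of this sequence were not counted. Most of the Kdm3a region lies beyond the end of the promoter at 71633167 and was not searched. Both RefSeq promoters are shown (GRCm38.p6, - strand, chr6:71632868-71633167 and chr10:44458699-44458998). Capitals mark GC boxes in Kdm3a (3 matches to GGGCGG) and the AP-1 motif TGANTCA in Prdm1 (1 match, which begins 48 bases before the start). The GC boxes of Kdm3a lie outside its Pu.1 region.
Kdm3a: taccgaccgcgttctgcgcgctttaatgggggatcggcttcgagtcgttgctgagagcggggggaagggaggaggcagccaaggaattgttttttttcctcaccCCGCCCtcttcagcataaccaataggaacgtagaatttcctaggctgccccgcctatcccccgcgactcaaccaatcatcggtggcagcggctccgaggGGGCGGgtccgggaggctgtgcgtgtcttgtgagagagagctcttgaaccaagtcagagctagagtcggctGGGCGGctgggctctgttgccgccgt
Prdm1: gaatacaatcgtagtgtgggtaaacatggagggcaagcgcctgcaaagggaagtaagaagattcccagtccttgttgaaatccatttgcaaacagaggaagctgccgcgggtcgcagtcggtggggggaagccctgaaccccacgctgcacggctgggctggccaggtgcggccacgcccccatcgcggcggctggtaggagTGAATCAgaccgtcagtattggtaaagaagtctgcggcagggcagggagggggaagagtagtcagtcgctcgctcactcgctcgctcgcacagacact

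Prdm1 also had 2 regions outside the gene span. These were cWT H3K27ac regions that adjoin without a gap (chromosome 10, 44529245 to 44529576 and 44529577 to 44529873) and carry the same deposited signal of 13.1. Prdm2, which encodes a SET-domain protein known for H3K9 methylation, had 6 regions, as many as Kdm6b, and they also included such an adjoining pair, at chromosome 4, 143154863 to 143155450 and 143155451 to 143155954. In the whole series 563 regions adjoined the next region of their list, and all 563 pairs had the same signal, so such pairs were deposited as 2 regions with 1 signal value. Prdm2 had in addition another cWT H3K27ac region, cKO Pol II (143212485 to 143212845) and cKO Ser5P (143212000 to 143212789) regions that shared 305 bases at an end of the gene, and a cKO Ser5P region at 143161799 to 143162212, 50764 bases from an end.

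Of the Prdm genes other than Prdm9, 5 of 13 had a region, and apart from Prdm1 and Prdm2 these were Prdm4, Prdm10 and Prdm15, which encode zinc-finger proteins. Prdm15 and Prdm4 each had overlapping cKO Pol II and cKO Ser5P regions at a start, sharing 363 and 214 bases. Prdm15 also had a cWT H3K27ac region 27869 bases from the start. Prdm10 had the widest member region, a cKO Ser5P region of 1102 bases (chromosome 9, 31280051 to 31281152) centred 52 bases from a start. The range over all member regions was 239 to 1102 bases, with a median of 458.

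Among the other SET domain genes, Setd6 had no region. Setd3, whose product methylates a histidine of actin, had the only member region with a deposited p-value under 0.05, a cKO Ser5P region at chromosome 12, 108179091 to 108179893 (p = 0.0331, adjusted p = 0.489, both from the authors' deposited table). In the whole series 169 of 22399 regions had such a p. It ranked 47 of 6163 in its list and overlaps the neighbour Ccnk. Setd4 had cKO H3K4me3 (chromosome 16, 93603639 to 93604133) and cKO Ser5P (93603609 to 93604109) regions that shared 471 bases at the start. Setd5 had a cKO H3K4me3 region (chromosome 6, 113076125 to 113076642) that shared 481 bases with a cWT H3K27ac region (113076162 to 113076733), both less than 1 kb outside an end of the gene and over the noncoding gene Gt(ROSA)26Sor, and a second cWT H3K27ac region inside the gene.

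**Figure D4:**
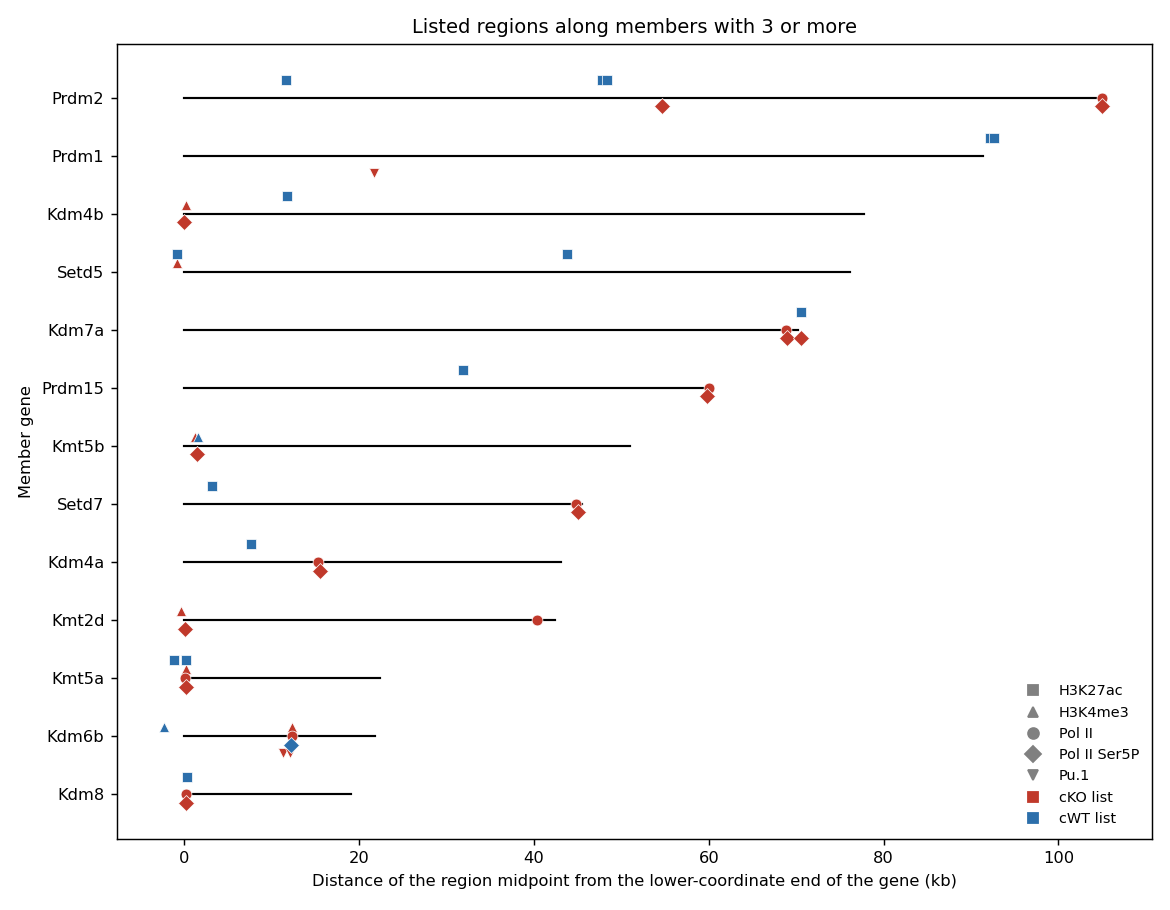
Midpoints of listed regions (symbols by antibody, cKO in red, cWT in blue) along the 13 members with 3 or more regions. The x axis is the distance in kb from the lower-coordinate end of the gene, whichever strand it is on, and each black line is a gene's span. Polymerase regions sit mostly at an end of the line, while several H3K27ac regions lie away from the ends, as at Setd7 and Prdm2.

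Of the 12 members with a cKO Pol II region, 11 also had a cKO Ser5P region, Kdm6b being the exception, against 2346 of 3587 such genes among all protein-coding genes. Of the 23 members with a cKO Ser5P region, 11 had a cKO Pol II region, against 2346 of 4615. At 10 of the 11 members with both, the Pol II and Ser5P regions overlapped (at Kmt2d they lay at opposite ends). Counted by region over the whole series, 2380 of 4647 cKO Pol II regions (51.2%) overlapped a cKO Ser5P region. The share among all genes with both lists was not counted. Both lists together were found at 21.2% of members and 10.7% of all protein-coding genes, and either of them at 24 members (46.2%), against 26.8%. Of the member regions in the cKO Pol II list, 11 of 12 overlapped a region of another list, against 66.0% of all gene-associated regions of that list. For cKO H3K4me3 it was 7 of 8 against 46.5%, for cKO Ser5P 16 of 25 against 55.8%, and for cWT H3K27ac 5 of 25 against 23.0%. In all, 43 of 78 member regions (55.1%) overlapped a region of another list, against 46.2% of regions at any protein-coding gene.

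The opposite listing of H3K27ac and polymerase was seen at 10 of 52 members (19.2%), which had H3K27ac in the cWT list and Pol II or Ser5P in the cKO list, against 9.90% of all protein-coding genes. Of the 18 members with a cWT H3K27ac region, 10 had such a polymerase region, against 2166 of 4008 such genes among all protein-coding genes. Over all listed regions, H3K27ac lay mostly in the cWT list and polymerase mostly in the cKO list. At 8 members (15.4%) H3K27ac in the cWT list came with neither polymerase, against 8.42%. The regions themselves overlapped at 4 of the 10: Kmt5a, Kdm8, Kdm7a and Kdm1b. At the other 6 (Kdm4a, Kdm4b, Prdm2, Prdm15, Setd3 and Setd7) H3K27ac and polymerase lay at different places of the gene. The same share among all protein-coding genes was not counted, so whether 4 of 10 is low or high is unknown.

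Member regions of the cKO Pol II and cKO Ser5P lists lay mostly at gene starts, H3K27ac regions less so. Of 25 cKO Ser5P regions 21 overlapped 2 kb on either side of a start (or of an end, for the genes whose start was not in the promoter table), as did 10 of 12 cKO Pol II, 5 of 8 cKO H3K4me3, 10 of 25 cWT H3K27ac and 2 of 4 cKO Pu.1 regions. Over all gene-associated regions the shares were 66.8%, 64.3%, 90.5%, 39.5% and 46.1% for these lists. When either end of the gene was counted for every member, 7 of 8 cKO H3K4me3 regions and 11 of 25 cWT H3K27ac regions lay at an end. In all, 14 of the 78 member regions also lay within 2 kb of another protein-coding gene.

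By the deposited p-value, member regions spread over the whole of their lists. The median rank was at the 38.0 percentile, where a lower percentile means a lower p, and 45 of 78 lay below the 50th percentile. List by list the median percentile was 32.4 for cKO Ser5P, 34.5 for cWT H3K27ac, 47.8 for cKO Pol II and 56.5 for cKO H3K4me3. No member region had an adjusted p under 0.05. By their deposited names 5 of the 78 member regions are primary and the others secondary. In the whole series 907 of 22399 regions are named primary, and what these names mean is not stated. What these p-values test is not stated in the labels or the files.

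**Figure D5:**
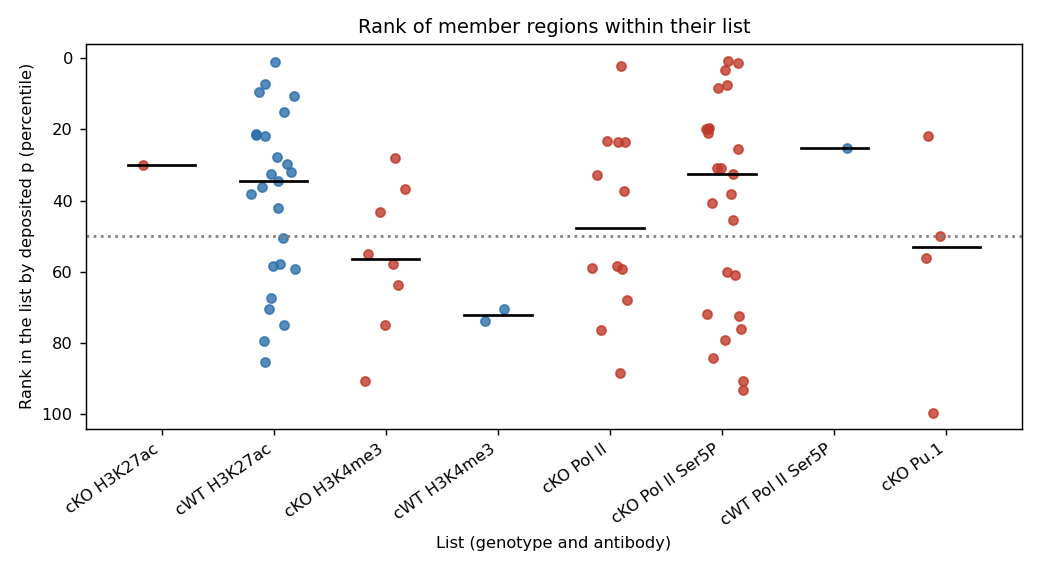
Rank of each member region within its own list by the deposited p-value, as a percentile (y axis, low p at the top), by list (x axis). Points are regions (cKO red, cWT blue), black bars are medians and the dotted line is the middle of a list. The 2 lists with the most points, cKO Ser5P and cWT H3K27ac, have medians of 32.4 and 34.5.

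The promoter table held 52 promoters of 37 members. Of these, 23 promoters of 20 members overlapped a listed region. The same count over all promoters was not made. Member promoters were rich in CpG, with a median ratio of observed to expected CpG of 0.833 and 23.5 CpG per 300 bases, against 0.567 and 13 over the promoters of protein-coding genes. The GC box GGGCGG was in 65.4% of member promoters (24 genes), against 46.2% of protein-coding and 35.7% of all promoters. The motif of the factor NRF1 was in 11.5% of member promoters, against 6.38% of protein-coding and 4.60% of all promoters. The AP-1 motif TGANTCA was in 11.5%, against 6.99% and 7.81%. The Pu.1 motif GAGGAAGT was in none of the 52, against 3.13% of protein-coding and 3.20% of all promoters. For a motif this rare, its absence from 52 promoters says little. Overlapping promoters of the same gene, as at Kdm2b and Setd3, were counted separately. Motifs were searched on both strands, and no matches of different motifs overlapped in member promoters.

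Beside the members stand 33 related genes, comprising methyltransferases and demethylases with other names and partner subunits. A cKO Ser5P region was found at 23 members (44.2%) and 14 related genes (42.4%). A cKO Pol II region was found at 23.1% of members and 42.4% of related genes, and a cWT H3K27ac region at 34.6% of members and 21.2% of related genes. For cWT H3K4me3 the shares were 3.85% of members and 18.2% of related genes (6 genes). No related gene had a cWT Pol II, cWT Ser5P or cWT Pu.1 region. Among them, Jmjd1c, a relative of Kdm3a and Kdm3b, had the most regions: 4 cKO Pol II, 5 cKO Ser5P, 1 cKO H3K4me3 and 1 cKO H3K27ac. Smyd3, with a span of 566094 bases, had 8 regions in 6 lists. Setdb2, an H3K9 methyltransferase gene, had 1 cKO Pol II and 1 cKO Ser5P region, and Setdb1, which encodes a related enzyme, had none.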

How the data were processed

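Positions are on mm10 (GRCm38), counted from 1. Per the submitters' processing notes, the tools were Bowtie2 2.4.4, MACS2 2.2.7.1, HOMER 4.11 and bedtools 2.30.0. The series is filed as ChIP-seq, while the protocol in the labels describes CUT&Tag. No source used here says how the replicates were merged or by what criterion a region was assigned to a genotype. Each deposited list gives per region a score (1 to 1000), a signal on an unstated scale, a deposited p-value and its adjusted form. The deposited score follows the deposited p-value on a log2 scale in all 22399 regions, so it was not used. The deposited signal was not compared between lists.

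Gene spans came from RefSeq on GRCm38.p6 and starts from its promoter table, which lists 37 members. For the other 15, either end of the span stood in. One gene with a fitting symbol is not reported here. Members, lists and tests were chosen with earlier results of these data known. Overlaps of 1 bp or more were counted and set beside all protein-coding genes as a description. Genes were named by a rule: regions in 3 or more lists, the most regions, any H3K4me3 or Pu.1 region, both genotypes in 1 antibody, a cWT polymerase or Pu.1 region, or p under 0.05. Members outside it, and the related genes named, were picked with their values in view. The overlap code was tested on simulated intervals. Alternatives changed the extension, overlap, width, p filter, merging, start window and members. Software was Python 3.11.15 with matplotlib 3.10.9, numpy 2.4.6, scipy 1.17.1 and pandas 2.3.3.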

Additional observations from a re-analysis of the deposited data

How the results depend on the processing

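Of 115 recalculations, 103 stayed within 1.5 times the count, or within the 95% interval of the share, and 12 did not. Some of the 103 could not have moved. Settings that only remove regions, span or genes leave a count of 0 (cWT Pol II, cWT Pu.1) unchanged. They also leave a cKO share of 100% (Pol II, Pu.1) unchanged, as does merging. With no extension of the span, cKO H3K4me3 regions were found at 5 members in place of 8 (9.62%, against 5.27% of all protein-coding genes) and cWT H3K4me3 at 1 in place of 2 (1.92%, against 3.34%). The cWT H3K4me3 count was also 1 when a region's midpoint had to lie in the extended span, and 1 without regions near another protein-coding gene, a setting added after the data were seen. Among regions of 300 bp or more, no member had a cKO Pu.1 or a cWT Ser5P region (0 in place of 3 and 1, against 1.59% and 0.279% of all genes), so the cKO share of Ser5P was 100% (22 of 22). When each list was reduced to its regions below the 50th percentile by p, the members counted were 6 for cKO Pol II in place of 12 (11.5%, against 9.48% of all genes), 3 for cKO H3K4me3 (5.77%, against 3.15%), 0 for cWT H3K4me3 (against 1.99%) and 1 for cKO Pu.1 in place of 3 (1.92%, against 1.64%), and the cKO share of H3K4me3 was 100% on 3 regions. That setting drops regions from every list by construction. The extension to 10 kb and the exclusion of Prdm genes kept all counts within the limit. For merged regions only the cKO shares were recalculated, and all stayed in the interval. The start windows of 1 and 5 kb, either gene end and the stricter overlap were judged on totals over all lists, which stayed within the limit. By list, cWT H3K4me3 regions at a start or end fell from 2 to 1 with the 1 kb window. For cKO Pu.1 they fell from 2 to 1 with either end, and for cKO H3K27ac they rose from 0 to 1 with 5 kb. No paired analysis was possible because the lists hold no value per replicate, and for the same reason no replicate could be left out. Counts of 1 to 4 regions limit every statement on Pu.1, cWT H3K4me3 and cWT Ser5P.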
